A study of Saccharomyces cerevisiae with 8 samples.

Results

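The subunits of the 3 nuclear RNA polymerases of budding yeast (*Saccharomyces cerevisiae*) were followed by their transcripts. The 31 genes were those whose symbol is RPA, RPB or RPC followed by digits only, together with *RPO21*, *RPO26*, *RPO31* and *RET1*, out of 5449 named genes on the array. Each was measured by 1 probe set. By textbook assignment, 7 encode subunits of RNA polymerase I (Pol I) alone, 7 of Pol II alone and 10 of Pol III alone, 2 are shared by Pol I and Pol III, and 5 by all 3 enzymes. Total RNA was hybridised to 8 Affymetrix arrays, 2 for each of 4 groups. The strain met30-6, labelled met30-6 (py283), carries a temperature-sensitive allele of *MET30*. It was harvested after 1 h at 25 °C, its permissive temperature, or after 1 h at 35 °C, its non-permissive temperature. The comparison strain PY1, of a genotype that the sources used here do not give, was harvested under the same 2 conditions. All cultures grew to mid-log phase at 25 °C in YPDA medium first, and the study compared the 2 temperatures to find transcripts that mark loss of Met30. Met30 is the F-box subunit of an SCF ubiquitin ligase.

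RNA polymerase I transcribes the large ribosomal RNA precursor, Pol II transcribes messenger RNAs, and Pol III transcribes transfer RNAs and 5S ribosomal RNA. The 3 enzymes are built on one plan. Each has a largest and a second largest subunit that form the active centre, a pair that starts assembly, a stalk of 2 proteins, and a zinc ribbon protein. Pol I and Pol III carry further subunits that resemble general factors which, in the case of Pol II, bind as separate proteins. In growing yeast most transcription serves ribosome production, and Pol I and Pol III supply its RNA.

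Values are log2 expression values as deposited, given array by array, with SDs within groups of 2. Differences are log2 ± SE from limma, and calls were made at adjusted p below 0.05 over all 5449 genes. The arrays measured bulk RNA with values relative to each array, so a smaller share of cells with a transcript and less of it per cell cannot be told apart. The subunit genes lay between 9.11 and 13.17 on every array, under the highest array value of 14.51. Replicate arrays correlated across genes at Pearson's r between 0.9931 and 0.9954, and array medians lay between 10.97 and 11.09. The median SD of the 31 genes within a group was 0.049 in PY1 at 25 °C, 0.044 in PY1 at 35 °C, 0.024 in met30-6 at 25 °C and 0.091 in met30-6 at 35 °C. Replicate 1 read above replicate 2 for 29 of the 31 genes in met30-6 at 35 °C and 9 in met30-6 at 25 °C. In PY1 it did so for 18 at 25 °C and 6 at 35 °C. This count was not made over all genes. Members can shift together on an array, so counts over the 31 genes are not counts of independent results. The MATa marker *STE2*, a pheromone receptor gene, stood between 12.75 and 13.38 on the 8 arrays, and the MATalpha pheromone gene *MF(ALPHA)1* between 3.29 and 4.38. The other 6 MATa markers read 8.60 or more on every array except *BAR1* (3.39 to 7.03). Of the other 3 MATalpha markers *STE3* read 5.65 to 6.55, *MF(ALPHA)2* 3.12 to 6.51 and *SAG1* 9.72 to 10.18. *MET30* itself read between 10.97 and 11.06 in PY1, 11.65 and 11.69 in met30-6 at 25 °C, and 13.03 and 13.11 at 35 °C, and the level of a temperature-sensitive allele's transcript does not check the strain labels.

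At 35 °C in met30-6 the messenger RNAs of Pol I and Pol III subunit genes were lower, and no change was called for those of the 2 largest Pol II subunits. The RNAs that Pol I and Pol III make were not examined here. The interaction, which is the temperature effect in met30-6 minus that in PY1, was called lower for 7 of 7 Pol I genes, 10 of 10 Pol III genes, 2 of 2 genes shared by Pol I and III and 5 of 5 genes shared by all 3 enzymes. For Pol II it was called lower in 2 of 7. In all 26 of the 31 genes were lower and 0 higher, with 5 not called, where 24.5% of all genes tested were lower and 23.7% higher. The median interaction was −1.25 for Pol I, −0.85 for Pol III, −0.75 for the pair shared by Pol I and III, −0.45 for the subunits common to all 3, and −0.003 for Pol II, beside 0.003 over all genes. Of the 5 subunit genes lowered by 2-fold or more, 4 belong to Pol I and 1 to Pol III, and 5.38% of all genes tested were lowered that far. The scaling bore on the count of higher genes: with array medians centred the Pol II gene *RPB4* was called higher (0.22, adjusted p = 0.0334). That centring moved the median over all genes from 0.003 to 0.0755. The classes themselves were described by counts and medians, with no test between them.

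**Figure D1:**
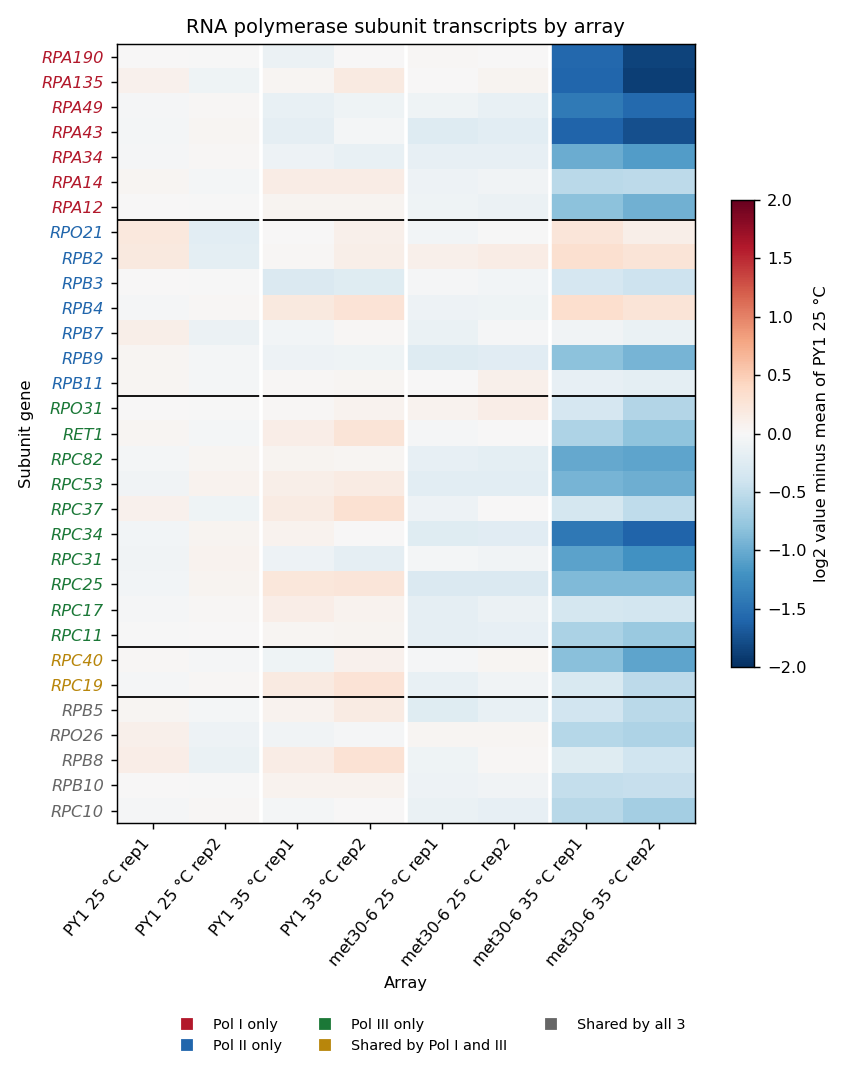
Log2 value of each of the 31 subunit genes (rows) on each of the 8 arrays (columns), minus that gene's mean over the 2 PY1 arrays at 25 °C, in colour. The 2 right-hand columns, met30-6 at 35 °C, are blue for the Pol I and Pol III genes, down to −1.88 for *RPA135*, and close to white or red for most Pol II genes.

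**Figure D2:**
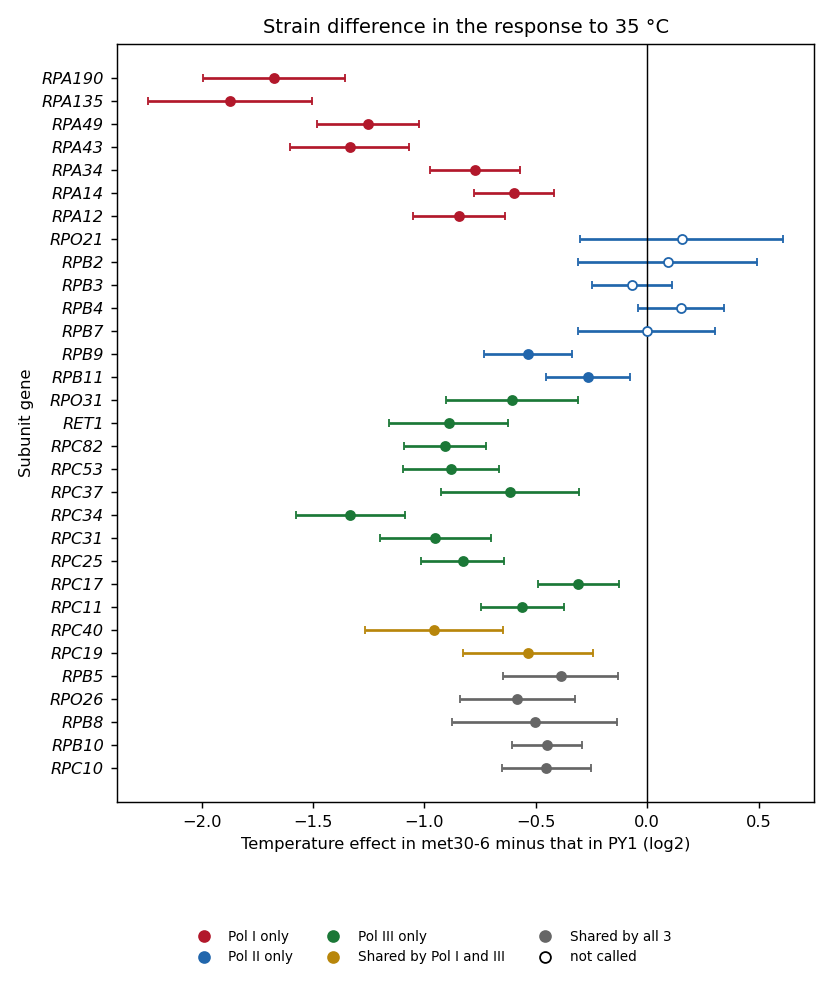
Interaction (temperature effect in met30-6 minus that in PY1, log2) for each subunit gene, with its 95% confidence interval from limma. Filled points passed the adjusted p of 0.05, and the 5 open points are Pol II genes.

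The same order showed on single arrays. With each gene set against its own PY1 mean at 25 °C, the Pol I class had a median of −1.41 and −1.56 on the 2 met30-6 arrays at 35 °C, and the Pol III class −0.76 and −0.84. The Pol II class stood at −0.07 and −0.14 there. On the other 6 arrays the class medians of Pol I, Pol II and Pol III lay between −0.17 and 0.10. Thus the Pol I median was 1.34 and 1.42 below the Pol II median on the 2 met30-6 arrays at 35 °C, a gap that did not exceed 0.11 on any other array. The corresponding gap between Pol III and Pol II was 0.69 and 0.70 there, with at most 0.12 elsewhere. For 27 of the 31 genes both met30-6 arrays at 35 °C lay below the other 6 arrays, where 29.0% of all genes did so. The 4 exceptions were *RPO21*, *RPB2*, *RPB4* and *RPB7*, all of Pol II.

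The 2 large Pol I subunits had the lowest interaction values of the 31 genes. *RPA190*, which encodes the largest subunit, read 12.91 and 12.89 in PY1 at 25 °C, 12.78 and 12.91 in PY1 at 35 °C, 12.91 and 12.91 in met30-6 at 25 °C, and 11.32 and 11.05 in met30-6 at 35 °C. The first 6 arrays were level and the last 2 were low, without overlap. Its interaction was −1.68 ± 0.13 (adjusted p = 0.000159). *RPA135*, which encodes the second largest subunit, read 13.07 and 12.90 in PY1 at 25 °C, 13.02 and 13.16 in PY1 at 35 °C, 12.99 and 13.04 in met30-6 at 25 °C, and 11.39 and 11.11 in met30-6 at 35 °C. Its interaction of −1.87 ± 0.15 (adjusted p = 0.000177) ranked 39 from the lowest among the 5449 genes, and that of *RPA190* ranked 59. In met30-6 the 2 transcripts fell by 3.31-fold and 3.41-fold from 25 °C to 35 °C.

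The other Pol I genes had interaction values from −1.34 to −0.60. *RPA43*, the stalk subunit that binds the initiation factor Rrn3, read 11.73 and 11.81 in PY1 at 25 °C, 11.59 and 11.74 in PY1 at 35 °C, 11.51 and 11.56 in met30-6 at 25 °C, and 10.17 and 10.01 in met30-6 at 35 °C. Its interaction was −1.34 ± 0.11. In the R64 gene table *RPA43* (YOR340C) and *RPA190* (YOR341W) are direct neighbours on opposite strands, and no other 2 of the 31 genes are adjacent. *RPA49* and *RPA34* encode the 2 partners of a dimer that resembles the Pol II factor TFIIF. They parted in size, at −1.25 ± 0.10 for *RPA49* and −0.77 ± 0.08 for *RPA34*, with intervals of −1.48 to −1.02 and −0.98 to −0.57 that do not overlap. *RPA12*, the zinc ribbon subunit used for RNA cleavage, stood at −0.85 ± 0.09. *RPA14*, the smaller stalk protein, had the smallest Pol I value, −0.60 ± 0.08, from arrays at 12.10 and 12.13 in met30-6 at 25 °C and 11.66 and 11.69 at 35 °C. Each of the 7 Pol I calls held under every alternative listed in the closing section.

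Among the 10 Pol III genes the lowest value was that of *RPC34*, part of the trio with *RPC82* and *RPC31* that opens the promoter and resembles TFIIE. *RPC34* read 10.65 and 10.76 in PY1 at 25 °C, 10.78 and 10.72 in PY1 at 35 °C, 10.47 and 10.49 in met30-6 at 25 °C, and 9.27 and 9.11 in met30-6 at 35 °C. Its interaction was −1.33 ± 0.10 (adjusted p = 0.000138), close to the −1.34 of *RPA43*. *RPC31* stood at −0.95 ± 0.11 and *RPC82* at −0.91 ± 0.08. The TFIIF-like pair *RPC53* and *RPC37*, which acts in termination and reinitiation, was at −0.88 ± 0.09 and −0.62 ± 0.13, with intervals that overlap.

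The 2 large Pol III subunits were lower by less than their Pol I counterparts, as read by 1 probe set per gene. *RPO31*, the largest subunit, read 11.78 and 11.76 in PY1 at 25 °C, 11.79 and 11.84 in PY1 at 35 °C, 11.83 and 11.91 in met30-6 at 25 °C, and 11.44 and 11.18 in met30-6 at 35 °C. Its interaction was −0.61 ± 0.12 (interval −0.90 to −0.31), against −1.99 to −1.36 for *RPA190*. *RET1*, the second largest subunit, read 12.33 and 12.26 in PY1 at 25 °C, 12.43 and 12.56 in PY1 at 35 °C, 12.27 and 12.30 in met30-6 at 25 °C, and 11.68 and 11.50 in met30-6 at 35 °C. Here the interaction was −0.89 ± 0.11 (−1.16 to −0.63), against −2.24 to −1.50 for *RPA135*. For both genes the 2 met30-6 arrays at 35 °C were the lowest of the 8. *RPC11*, the cleavage subunit of Pol III, was at −0.56 ± 0.08. Of the stalk pair, *RPC25* was at −0.83 ± 0.08 and *RPC17* at −0.31 ± 0.08, the smallest value of the class. The call of *RPC17* ended with quantile normalisation (−0.18, adjusted p = 0.0716). It also ended when PY1 35 °C replicate 1 (−0.28) or met30-6 25 °C replicate 2 (−0.27) was left out, with adjusted p of 0.0522 and 0.0648.

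*RPC40* and *RPC19* encode the assembly pair that Pol I and Pol III share, the counterpart of *RPB3* and *RPB11* in Pol II. *RPC40* read 12.57 and 12.52 in PY1 at 25 °C, 12.45 and 12.62 in PY1 at 35 °C, 12.52 and 12.59 in met30-6 at 25 °C, and 11.70 and 11.48 in met30-6 at 35 °C, with an interaction of −0.96 ± 0.13. *RPC19* read 12.47 and 12.53 in PY1 at 25 °C, 12.68 and 12.78 in PY1 at 35 °C, 12.35 and 12.43 in met30-6 at 25 °C, and 12.20 and 11.97 in met30-6 at 35 °C, with an interaction of −0.54 ± 0.12. The 35 °C arrays of PY1 were the highest for *RPC19*, and those of met30-6 the lowest. Within met30-6 alone *RPC40* fell by 0.96 and *RPC19* by 0.31. The latter call was lost when replicate 2 of met30-6 was left out at 25 °C (−0.27) or at 35 °C (−0.20), with adjusted p of 0.0834 and 0.0796.

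Of the 7 Pol II subunit genes 5 had no call in the interaction and 2 were lower (28.6%), beside 24.5% of all genes called lower. *RPO21*, which encodes the largest subunit with the repeated tail that is phosphorylated during transcription, read 12.66 and 12.23 in PY1 at 25 °C, 12.45 and 12.55 in PY1 at 35 °C, 12.40 and 12.44 in met30-6 at 25 °C, and 12.70 and 12.57 in met30-6 at 35 °C. *RPB2*, the second largest subunit, read 12.93 and 12.55 in PY1 at 25 °C, 12.77 and 12.86 in PY1 at 35 °C, 12.84 and 12.90 in met30-6 at 25 °C, and 13.07 and 13.00 in met30-6 at 35 °C. Replicate 2 of PY1 at 25 °C was the lowest of the 8 arrays for both, and the SD of that group, 0.30 and 0.27, was the widest among the 31 genes. The interaction was 0.15 ± 0.19 for *RPO21* (interval −0.30 to 0.61) and 0.09 ± 0.17 for *RPB2* (−0.31 to 0.49). Without PY1 25 °C replicate 2, *RPO21* was called higher (0.37, adjusted p = 0.0347).

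The other 3 uncalled Pol II values had intervals of −0.25 to 0.11 for the assembly subunit *RPB3*, −0.31 to 0.30 for the stalk subunit *RPB7* and −0.04 to 0.35 for its stalk partner *RPB4*. *RPB3* was lower at 35 °C in both strains, by 0.27 in PY1 and by 0.34 in met30-6. *RPB4* was higher at 35 °C in both, by 0.23 ± 0.06 in PY1 and 0.39 ± 0.06 in met30-6. The latter was the only higher call among the 31 genes in met30-6 with all arrays in the fit. *RPO21* stood at 0.21 ± 0.13 in met30-6, where its SD was 0.03 at 25 °C and 0.09 at 35 °C. It was not called, and the spread used in the fit also took in its SD of 0.30 in PY1 at 25 °C. *RPB4* and *RPB7* form a stalk that can leave the yeast enzyme, and *RPB7* had −0.02 ± 0.09 in both strains. In PY1 the call of *RPB4* was lost when PY1 25 °C replicate 1 (0.21) or PY1 35 °C replicate 2 (0.19) was left out, with adjusted p of 0.067 and 0.113. That of *RPB3* was lost when PY1 35 °C replicate 1 was left out (−0.25, adjusted p = 0.0531).

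*RPB9* went with the other polymerases. It encodes the zinc ribbon subunit of Pol II, which acts in start site choice and fidelity and is not essential in yeast. It read 11.68 and 11.61 in PY1 at 25 °C, 11.55 and 11.55 in PY1 at 35 °C, 11.39 and 11.41 in met30-6 at 25 °C, and 10.83 and 10.71 in met30-6 at 35 °C. The last 2 arrays lay at least 0.56 below the rest, and the interaction was −0.54 ± 0.08 (adjusted p = 0.00219). *RPB11*, the smaller assembly subunit, was at −0.26 ± 0.08 (adjusted p = 0.0308), from 12.25 and 12.34 in met30-6 at 25 °C to 12.07 and 12.04 at 35 °C. This call ended without PY1 25 °C replicate 2 (−0.23), PY1 35 °C replicate 1 (−0.27) or 2 (−0.26), met30-6 25 °C replicate 2 (−0.22), and met30-6 35 °C replicate 1 (−0.28) or 2 (−0.25), with adjusted p between 0.0602 and 0.117. With the replicate number as a block it ended as well (adjusted p = 0.061).

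The 5 subunits common to all enzymes had interaction values from −0.58 to −0.39, and their median lay between those of Pol II and Pol III. *RPO26*, the gene of the subunit also called Rpb6, read 13.04 and 12.82 in PY1 at 25 °C, 12.85 and 12.90 in PY1 at 35 °C, 12.96 and 12.97 in met30-6 at 25 °C, and 12.36 and 12.31 in met30-6 at 35 °C. Its interaction was −0.58 ± 0.11. *RPB10*, a small zinc-binding subunit, read 12.73 and 12.71 in PY1 at 25 °C, 12.79 and 12.79 in PY1 at 35 °C, 12.62 and 12.65 in met30-6 at 25 °C, and 12.25 and 12.26 in met30-6 at 35 °C, with −0.45 ± 0.07. For both genes the last group was apart from the rest. *RPC10*, which despite its symbol encodes the subunit Rpb12 of all 3 enzymes, was also at −0.45 ± 0.08. *RPB8* was at −0.51 ± 0.15 and *RPB5*, of the lower jaw, at −0.39 ± 0.11 (adjusted p = 0.0333 and 0.0235).

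The calls of *RPB8* and *RPB5* were the least stable of the shared set. That of *RPB8* ended without PY1 25 °C replicate 2 (−0.37), PY1 35 °C replicate 2 (−0.44), met30-6 25 °C replicate 1 (−0.56) or 2 (−0.45), and met30-6 35 °C replicate 2 (−0.42), and with the replicate block, with adjusted p between 0.0522 and 0.103. That of *RPB5* ended without PY1 25 °C replicate 2 (−0.35), PY1 35 °C replicate 2 (−0.34), met30-6 25 °C replicate 2 (−0.34) or met30-6 35 °C replicate 2 (−0.31), with adjusted p between 0.0606 and 0.0796. In each case the direction was kept.

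Homologous positions allow the 3 enzymes to be read side by side. Each gene rests on a single probe set of its own, and whether the probe sets respond alike was not tested. At each of the 7 positions the Pol II gene had the highest interaction value, and the Pol I value was the lowest or, for the shared assembly pair, that of Pol III too. At the largest subunit the values were −1.68, −0.61 and 0.15, and at the second largest −1.87, −0.89 and 0.09 for Pol I, Pol III and Pol II. The larger stalk protein gave −1.34, −0.83 and −0.003, and the smaller one −0.60, −0.31 and 0.15. For the assembly pair the shared *RPC40* and *RPC19* stood at −0.96 and −0.54, beside −0.07 for *RPB3* and −0.26 for *RPB11*. The zinc ribbon position had *RPA12* at −0.85, *RPC11* at −0.56 and *RPB9* at −0.54, and the last 2 differed by less than either SE (0.08). In both Pol I and Pol III the smaller stalk gene had the value nearest to 0 of its class.

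**Figure D3:**
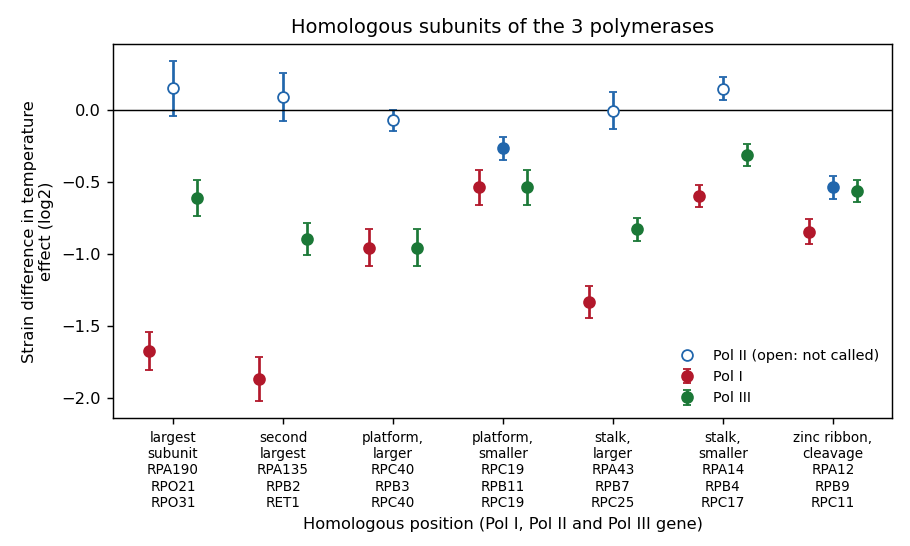
Interaction (log2, ± SE) of the genes at 7 homologous positions, with Pol I in red, Pol II in blue and Pol III in green, and open points for genes not called. *RPC40* and *RPC19* appear under both Pol I and Pol III because those enzymes share them, and the Pol II point is the highest at each position.

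Within met30-6, 35 °C against 25 °C gave 26 lower and 1 higher of the 31 genes, where 29.3% of all genes were lower and 38.8% higher. The median was −1.37 for Pol I, −0.65 for Pol III, −0.02 for Pol II and −0.38 for the subunits of all 3, beside 0.07 over all genes. *RPB8* was not called (−0.29, adjusted p = 0.0534), though it was under 6 alternatives. Beside *RPC19*, 4 lower calls ended when an array was left out: *RPB11* (−0.19, adjusted p = 0.0711) and *RPC17* (−0.18, adjusted p = 0.0809) without met30-6 25 °C replicate 2, *RPC37* (−0.31, adjusted p = 0.051) without met30-6 35 °C replicate 2, and *RPB5* without either (−0.23 and −0.19, adjusted p = 0.0942 and 0.094). The strains at 35 °C also gave 26 lower and 0 higher, beside 32.7% and 34.0% of all genes. There the call of *RPB11* (−0.21) was lost when PY1 35 °C replicate 1 (−0.22) or 2 (−0.21) or met30-6 35 °C replicate 2 (−0.20) was left out, with adjusted p between 0.0519 and 0.0648. *RPB2* (0.22) was called higher after centring of the array medians (0.30, adjusted p = 0.0418) and when either PY1 25 °C array was left out (0.22, adjusted p = 0.0189), and *RPB4* (0.06) after that centring (0.14, adjusted p = 0.0406). This comparison, the interaction and the temperature effect in met30-6 share the met30-6 arrays at 35 °C, and the interaction shares its other arrays with the remaining comparisons, so their values are not independent. At 35 °C *RPA135* was 3.58-fold lower in met30-6 than in PY1, *RPA190* 3.16-fold, *RPA43* 2.98-fold and *RPC34* 2.95-fold.

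In PY1 the shift alone moved few of these genes. Of the 31, *RPB4* and *RPC25* were higher and *RPB3* lower, beside 26.2% higher and 10.4% lower of all genes, and 28 were not called. The 31 values lay between −0.27 and 0.23, with a median of 0.05 beside 0.07 over all genes. Class medians were −0.05 for Pol I, 0.03 for Pol II and 0.07 for Pol III. For *RPC25* the 35 °C arrays, at 11.43 and 11.46, lay above the 25 °C arrays, at 11.16 and 11.27. Its difference of 0.23 ± 0.06 lost its call after centring of the array medians (0.18, adjusted p = 0.0557). Leaving out PY1 25 °C replicate 1 (0.18) or PY1 35 °C replicate 1 (0.24) or 2 (0.22) ended it too, with adjusted p between 0.0562 and 0.0901.

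**Figure D4:**
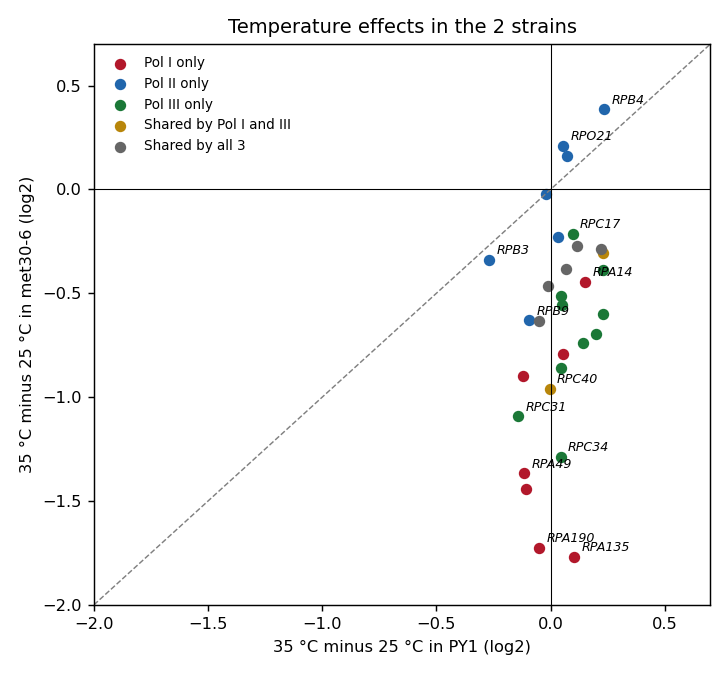
Temperature effect (35 °C minus 25 °C, log2) in PY1 on the horizontal axis and in met30-6 on the vertical axis for the 31 subunit genes, with the line of equal effects dashed. The points spread from −0.27 to 0.23 along the PY1 axis and from −1.77 to 0.39 along the met30-6 axis.

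At 25 °C few of these transcripts were called different between the strains. *RPC25* was called lower in met30-6, by 0.29 ± 0.06, and *RPB9* by 0.25 ± 0.06, and 0 were higher, beside 5.95% lower and 6.94% higher of all genes. For *RPC25* the call ended without PY1 25 °C replicate 2 (−0.24), met30-6 25 °C replicate 1 (−0.29) or met30-6 25 °C replicate 2 (−0.29), with adjusted p between 0.0583 and 0.103. For *RPB9* it ended under the replicate block and without any of 6 arrays, namely those of PY1 and those of met30-6 at 25 °C, with values between −0.28 and −0.21 and adjusted p between 0.0657 and 0.182. The median over the 31 genes was −0.09, with 24 values below 0. Over all 5449 genes the median was 0.01, with 2638 values below 0. Class medians were −0.16 for Pol III, with 9 of 10 values below 0, −0.10 for Pol I and −0.04 for Pol II.

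Factors that work with each polymerase were listed apart from its subunits. Their counts in the interaction stand beside 24.5% lower and 23.7% higher of all genes. Of 9 Pol I initiation factors 5 were lower and 0 higher, with a median of −0.47. They include *RRN7* (−0.71) and *RRN6* (−0.54) of the core factor, and *UAF30* (−0.61) and *RRN9* (−0.47) of the upstream activating factor. Of 9 Pol III initiation factors 3 were lower and 0 higher, with a median of −0.08: *TFC8* (−0.52) and *TFC4* (−0.45) of TFIIIC, and *BRF1* (−0.27) of TFIIIB. *TFC3* (0.24) was not called. Of 18 general factors of Pol II, 2 were higher and 1 lower, with a median of 0.004. The TFIIH helicase gene *SSL2* was at 0.47, *TFG1* of TFIIF at 0.24 and *TFB4* of TFIIH at −0.31, while *TFB2* (−0.26, adjusted p = 0.0553) was not called. Among 25 ribosome assembly factors 23 were lower and 0 higher, with a median of −0.86. The lowest p-values in that list were those of the helicase genes *HAS1* (−1.52) and *DBP3* (−1.52), *KRR1* (−1.64) and *NOP7* (−1.56).

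Factors that assemble polymerases or carry them into the nucleus were mixed, with 5 of 9 lower and 1 higher and a median of −0.27, beside the same 24.5% and 23.7% of all genes. *BUD27*, a prefoldin-like protein that serves all 3 enzymes, was lower at −1.05 ± 0.10, from 10.98 and 10.98 in met30-6 at 25 °C to 10.14 and 10.01 at 35 °C. The GTPase genes *NPA3*, *GPN3* and *GPN2* were at −0.75, −0.37 and −0.27, and *RTP1*, which acts in nuclear import, at −0.69. *IWR1*, an import adaptor of Pol II, was higher (0.33 ± 0.09). The values of *RBA50* (0.12), *RTR1* (0.06) and *RBS1* (−0.21) were not called. Of 6 regulators of transcription, 1 was higher and 0 lower, with a median of 0.04: *SPT6*, a histone chaperone gene (0.37 ± 0.11). The repressor of Pol III *MAF1* (0.16), *SPT5* (−0.14), *DST1* (0.08), *SPT4* (−0.01) and *SPT15* (−0.004), the gene of the TATA-binding protein used by all 3 enzymes, were not called.

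**Figure D5:**
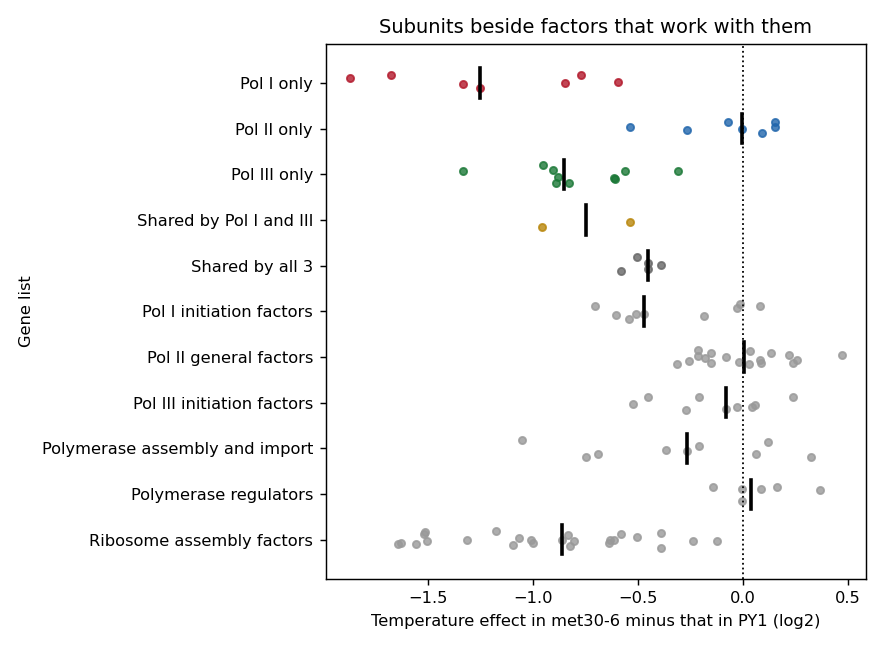
Interaction (log2) of every measured gene in the 5 subunit classes (coloured) and in 6 lists of factors (grey), with a black bar at each list's median. The dotted line is the median of all 5449 genes, 0.003, and the Pol II subunits (−0.003) and Pol II general factors (0.004) are centred on it.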

How the data were processed

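The authors' processed values were deposited as 1 table of 5716 probe sets and 8 arrays. They were read as deposited log2 expression values because they run from 0 to 14.51; the base is inferred, and the sources used here do not give background correction, summarisation or scaling. Per the labels' protocols, biotin-labelled cRNA was hybridised to Affymetrix arrays. Probe sets were named through the platform annotation, with 12 symbols updated from the R64 gene table; 218 had no entry. The brightest probe set per gene was kept, which left 5449 genes. limma 3.58.1 in R 4.3.3 (lmFit, eBayes) fitted 4 group means to the 8 arrays with no filter, leaving 4 residual degrees of freedom (prior 2.7). The 5 contrasts had two-sided p-values and the Benjamini-Hochberg adjustment across all genes. The fit was run on simulated arrays with independent noise and planted changes. That run checks the code and not the calls, because genes on the real arrays can shift together. Alternatives were array medians centred, quantile normalisation, the dimmest 25% of genes left out, every probe set tested, mean of probe sets, no s_at or x_at probe sets, a variance trend, a replicate block and each array left out. Every subunit gene, every assembly factor and regulator, and up to 4 genes of each other list with the lowest adjusted p in the interaction are named. The members and lists were chosen with earlier results of these data known. The labels do not say that replicates were separate cultures, so the spread behind the p-values may be technical, and the number of arrays limits the precision. Promoter and protein sequences were not analysed here.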

Additional observations from a re-analysis of the deposited data

Results flagged for a closer look

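The temperature effect differed between met30-6 and PY1, by limma's interaction term, for 26 subunit genes, and each value follows on the log2 scale as the met30-6 effect minus the PY1 effect. Pol I genes were at −1.68 (*RPA190*), −1.87 (*RPA135*), −1.25 (*RPA49*), −1.34 (*RPA43*), −0.77 (*RPA34*), −0.60 (*RPA14*) and −0.85 (*RPA12*). Pol II genes were at −0.54 (*RPB9*) and −0.26 (*RPB11*). Pol III genes were at −0.61 (*RPO31*), −0.89 (*RET1*), −0.91 (*RPC82*), −0.88 (*RPC53*), −0.62 (*RPC37*), −1.33 (*RPC34*), −0.95 (*RPC31*), −0.83 (*RPC25*), −0.31 (*RPC17*) and −0.56 (*RPC11*). Genes of shared subunits were at −0.96 (*RPC40*), −0.54 (*RPC19*), −0.39 (*RPB5*), −0.58 (*RPO26*), −0.51 (*RPB8*), −0.45 (*RPB10*) and −0.45 (*RPC10*). With 2 arrays a group, no single array was tested as an outlier.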

How the results depend on the processing

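Across the alternatives every called difference of a subunit gene kept its sign, and 57 sign changes were of values called neither as reported nor under that alternative. Lower calls in the interaction numbered 26, and 22 to 26 when an array was left out, with 7 in the Pol I class in every setting. With array medians centred the interaction medians were −1.18 (Pol I), 0.070 (Pol II), −0.78 (Pol III) and −0.38 (subunits of all 3), 1 gene was called higher, and counts became 1 higher and 3 lower for PY1 heat and 2 higher for the strains at 35 °C. With quantile normalisation these medians were −1.18, −0.044, −0.76 and −0.53, with 4 lower calls for PY1 heat and 4 for the strains at 25 °C. Without the dimmest genes 5 genes were higher for PY1 heat and 5 lower for the strains at 25 °C. With a variance trend 6 were higher for PY1 heat. The shares of all genes called under the alternatives were not counted, so gains of subunit genes cannot be set against them. Leaving out each array in turn gave interaction medians of −1.33 to −1.18 (Pol I), −0.10 to 0.12 (Pol II), −0.87 to −0.79 (Pol III), −0.86 to −0.64 (shared by Pol I and III) and −0.51 to −0.42 (shared by all 3). Counts of higher calls ranged from 0 to 1 in the interaction, 1 to 2 for met30-6 heat, 0 to 3 for PY1 heat, 0 to 1 for the strains at 35 °C and 0 to 1 at 25 °C. Lower calls also changed in number for met30-6 heat, PY1 heat and the strains at 35 °C and at 25 °C. Of these comparisons met30-6 heat changed most, and its calls that ended are named above. Where an arm held 1 array, it was assumed to vary like the other groups. Centring shifts every gene of an array by the same amount. The causes of the other moves were not tested.

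The replicate numbers were not found to pair the arrays: deviations of same-numbered arrays correlated between −0.18 and 0.11. With the replicate block, 24 genes were lower in the interaction (*RPB11* and *RPB8* lost their calls) and 1 at 25 °C. No detection calls were analysed here, so signal over background is unknown.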
